A study of Mus musculus with 9 samples.

Results

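The interleukin 1 family and its receptors were followed through 8 genes of 46095 gene symbols in the count table. Their rows were taken by symbol, and the members were chosen with earlier results of these data known. They are the ligand genes Il1a, Il1b and Il18, the inhibitor genes Il1rn and Il18bp, and the receptor genes Il1r1, Il1rap and Il1r2. The RNA came from bone marrow-derived macrophages (marrow precursors matured in culture into macrophages) of wild type Balb/c mice aged 6 weeks. Of 9 libraries, 3 were treated with LPS plus BHB, 3 with LPS and 3 were control. The labels give no dose, time or culture details and do not spell out the abbreviations, which commonly stand for lipopolysaccharide, a bacterial activator of Toll-like receptor 4, and the ketone body beta-hydroxybutyrate. No library had BHB without LPS, so BHB is compared on an LPS background only. Nothing states that the replicates were separate cultures or animals, so p-values measure the spread between these libraries, which may be technical.

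Interleukin 1 alpha and interleukin 1 beta bind the same receptor, made of the signalling chain Il1r1 and the accessory chain Il1rap, and drive fever and inflammation through the adaptor Myd88 and NF-kB. The pathway is restrained by a receptor antagonist (Il1rn), which occupies Il1r1 without signalling, and by a decoy receptor (Il1r2), which binds ligand and has no signalling domain. Interleukin 18 is a related cytokine that is made as a precursor and is neutralised by the secreted protein of Il18bp. In macrophages, Toll-like receptor ligands switch on Il1b transcription, and an inflammasome with caspase 1 then cleaves the interleukin 1 beta and interleukin 18 precursors. Transcript counts therefore do not measure released cytokine.

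Library totals lay between 29633411 and 32798920 counts, and 14026 genes were tested. Macrophage markers were abundant, with Lyz2 averaging 5883 CPM (counts scaled to library size) with LPS plus BHB, 5061 CPM with LPS and 14575 CPM in control. Of 7 mast cell and basophil markers 4 had no count, and the sum was at most 0.169 CPM in any library. The T cell marker Cd3e had 1 count over all libraries, while Cd4, which macrophages can also express, averaged 3.402 CPM with LPS plus BHB, 2.73 CPM with LPS and 12.5 CPM in control. Summed levels of 8 dendritic cell markers were 16.4 to 17.5 CPM with LPS plus BHB, 20.1 to 24.7 CPM with LPS and 3.13 to 3.86 CPM in control. Of the 3 tested in LPS against control, Zbtb46 (log2 fold change 4.54) and Ccr7 (1.57) rose and Cd209a (-5.01) fell. Summed levels of 10 stromal markers were 132 to 163 CPM with LPS plus BHB, 98.3 to 109 CPM with LPS and 10.8 to 18.6 CPM in control. Of the 8 tested in LPS against control 1 rose (Pdgfrb, with 138 CPM in LPS plus BHB, 98.5 CPM in LPS and 3.54 CPM in control), 1 fell (Pecam1, log2 fold change -4.19) and 6 did not pass. Beside these, 38.4% of all genes tested were called higher and 41.4% lower in LPS against control. The part of cells other than macrophages in the results was not tested. The control libraries were not alike. Among 284 genes that were called at least 8-fold higher with LPS than in control and had at least 20 CPM with LPS, control replicates 2 and 3 exceeded control replicate 1 in 239 and 238 genes, by a median of 0.619% and 0.678% of the LPS mean. Ratios to control replicate 1 alone are therefore given as well. In bulk RNA, fewer cells of a type and less RNA per cell cannot be told apart.

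Il1a and Il1b were the most abundant members in both treated groups, and both were higher with BHB added to LPS than with LPS. Il1a, on chromosome 2 from 129299610 to 129309972 (GRCm38, minus strand), had 4879, 4919 and 4779.7 CPM with LPS plus BHB, 2049, 2139 and 2015 CPM with LPS, and 0.479, 24.4 and 28.8 CPM in control. The LPS plus BHB libraries all lay above the LPS libraries, and these above the control libraries, while control replicate 1 stood far below the other control libraries. Il1b, on the same chromosome from 129364570 to 129371139 (minus strand), had 4076, 3827 and 3732 CPM with LPS plus BHB, 2043, 2053 and 1905 CPM with LPS, and 18.4, 40.3 and 35.4 CPM in control. Its groups did not overlap either, and control replicate 1 was again the lowest control library. Together Il1a and Il1b took 0.784% to 0.819% of all counts with LPS plus BHB, 0.374% to 0.398% with LPS and 0.00218% to 0.00740% in control.

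**Figure D1:**
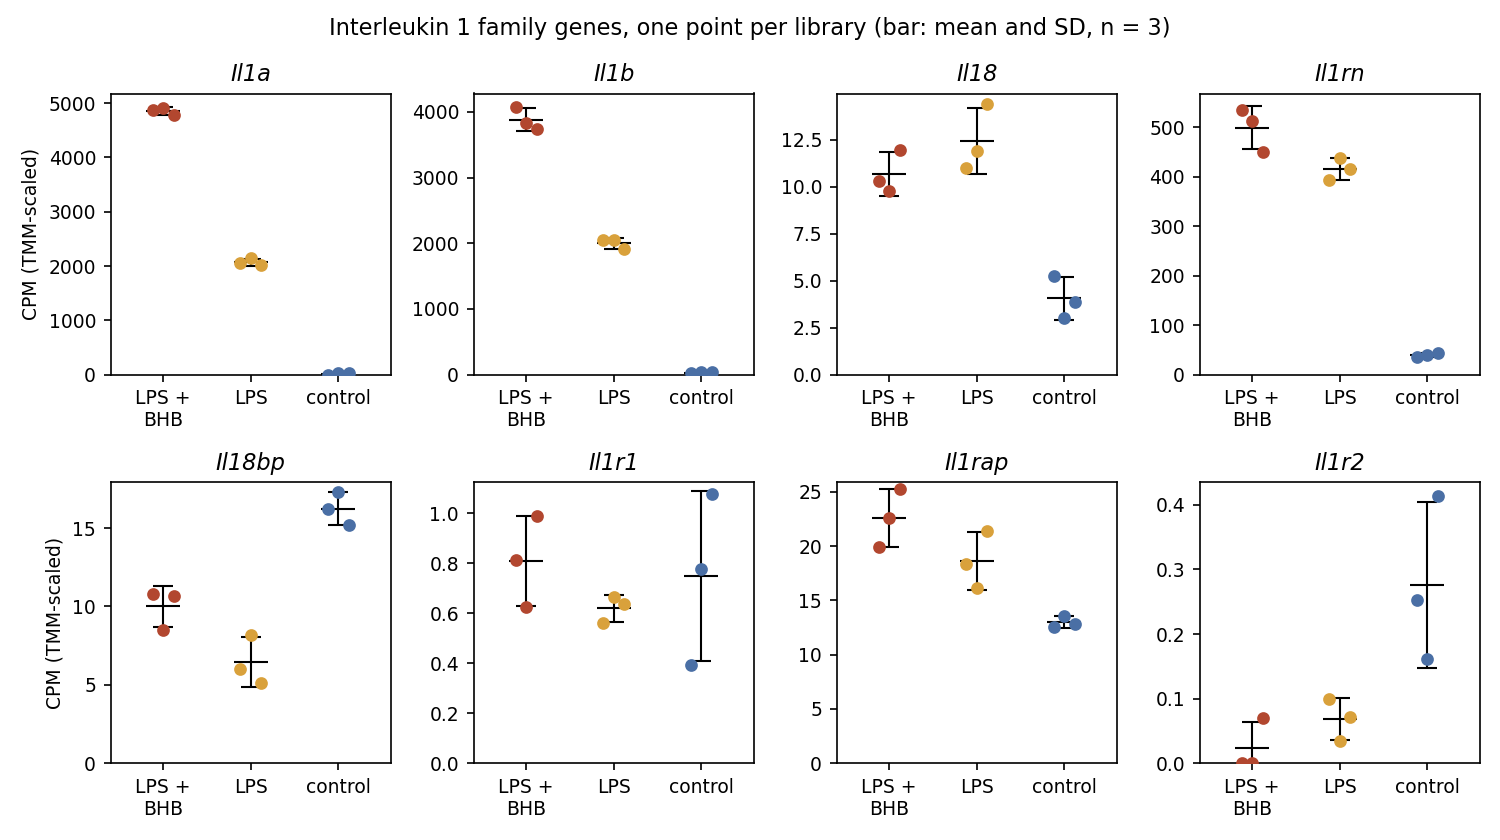
Level of each of the 8 members in CPM (linear axes from 0, a different scale in each panel), with 1 point per library in the LPS plus BHB, LPS and control groups, and bars for the mean and SD of 3 libraries. Il1a and Il1b rank LPS plus BHB over LPS over control without overlap, Il18bp is highest in control, and Il1r1 overlaps in every pair of groups.

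The sequences just upstream of Il1a, Il1b and Il1rn are shown because these 3 had the largest fold changes of the 7 tested members in LPS against control. Each runs from 250 bases before to 50 bases after the transcription start, 5′ to 3′ on the gene's strand, from RefSeq (GRCm38.p6, the C57BL/6J reference and not the Balb/c strain). All 8 members matched the RefSeq promoter table, with 11 windows in all. Il1rn has 3 listed starts, of which the most upstream is shown, and gene counts do not tell which start was used. Capitals mark matches, on either strand, to the AP-1 motif TGANTCA, the PU.1 core GAGGAA or the TATA box TATAAA.
Il1a, chr2:129309923-129310222, minus strand: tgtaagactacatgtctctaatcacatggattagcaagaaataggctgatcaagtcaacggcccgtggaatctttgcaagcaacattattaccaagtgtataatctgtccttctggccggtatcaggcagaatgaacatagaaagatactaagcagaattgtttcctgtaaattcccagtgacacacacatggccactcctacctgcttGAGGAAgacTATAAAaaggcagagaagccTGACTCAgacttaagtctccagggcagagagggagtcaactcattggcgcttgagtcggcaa
Il1b, chr2:129371090-129371389, minus strand: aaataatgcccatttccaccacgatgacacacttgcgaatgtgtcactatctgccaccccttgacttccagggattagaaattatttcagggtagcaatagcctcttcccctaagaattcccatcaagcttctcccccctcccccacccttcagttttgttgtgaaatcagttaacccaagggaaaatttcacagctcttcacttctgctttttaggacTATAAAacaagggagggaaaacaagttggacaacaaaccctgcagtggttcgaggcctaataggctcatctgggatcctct
Il1rn, chr2:24336610-24336909, plus strand: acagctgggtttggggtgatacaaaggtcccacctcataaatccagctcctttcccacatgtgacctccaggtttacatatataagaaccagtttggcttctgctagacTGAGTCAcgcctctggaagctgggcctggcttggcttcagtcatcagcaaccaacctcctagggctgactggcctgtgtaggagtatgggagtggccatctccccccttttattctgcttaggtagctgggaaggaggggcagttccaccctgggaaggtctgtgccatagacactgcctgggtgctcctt
A TATA box began 32 bases before the start of Il1a and 31 bases before that of Il1b, and 13.6% of all 32851 promoter windows of this length hold those letters. The AP-1 motif began 12 bases before the start of Il1a and 141 bases before that of Il1rn, and 7.81% of windows hold it. The PU.1 core of Il1a began 41 bases before the start, and 28.3% of windows hold those letters. The C/EBP motif TTGCNNAA, the HIF core ACGTG and the NF-kB consensus were also searched on both strands and had no match in these 3 windows, against 10.8%, 19.6% and 8.46% of all windows. These matches describe letters in a short window and were not tested as binding sites.

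Il1a averaged 4859 ± 71.9 CPM with LPS plus BHB and 2068 ± 64.1 CPM with LPS (SD, n = 3 each), a ratio of means of 2.35. In the fit of all 9 libraries its log2 fold change of 1.23 (SE 0.74) did not pass the threshold of 0.05 (adjusted p = 0.220, from the quasi-likelihood test of edgeR, adjusted by Benjamini-Hochberg over all genes). That fit estimates 1 spread for each gene from all groups, and for Il1a the biological coefficient of variation was 87.3%, against 6.72% for the typical gene, with the control libraries apart by the values above. Fitted on the 6 libraries of the LPS plus BHB and LPS groups alone, Il1a rose with the same size and passed (log2 fold change 1.23, SE 0.04, adjusted p = 7.91e-15). It also passed without control replicate 1 (adjusted p = 7.02e-14), and without control replicates 2 and 3 its log2 fold change was again 1.23. It did not pass without control replicate 2 (adjusted p = 0.270) or 3 (0.229), or with DESeq2 (0.343). Leaving out any 1 treated library did not make it pass either (adjusted p = 0.304 to 0.376).

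Il1b rose in LPS plus BHB against LPS, with a ratio of means of 1.94 and a log2 fold change of 0.96 (SE 0.24, adjusted p = 0.0170 in the fit of 9 libraries, and SE 0.05, adjusted p = 1.44e-12 in the fit of the 6). In the fits that kept the control libraries, this call was lost without LPS replicate 1 (adjusted p = 0.0550), 2 (0.0547) or 3 (0.0611) or LPS plus BHB replicate 1 (0.0517). The log2 fold change stayed between 0.91 and 0.98 over all fits that left out 1 library. The ratio of Il1a to Il1b counts was 1.20, 1.29 and 1.28 with LPS plus BHB, 1.00, 1.04 and 1.06 with LPS, and 0.0260, 0.606 and 0.813 in control. The treated groups did not overlap in this ratio, and the difference was not tested.

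Both ligand genes have an antisense neighbour. Il1a shares 222 of its 1974 exon bases with Gm14023, which averaged 52.7 CPM with LPS plus BHB, 22.4 CPM with LPS and 0.585 CPM in control, and rose in LPS plus BHB against LPS by a log2 fold change of 1.23 (SE 0.07, adjusted p = 1.10e-11). Il1b shares 25 of its 1907 exon bases with Il1bos, at 2.86 CPM with LPS plus BHB, 4.07 CPM with LPS and 0.0186 CPM in control. Whether the counting used strand is not stated, so reads from the shared bases cannot be told apart, and their part in the ligand values was not tested. Over 9 libraries Gm14023 had 6585 counts and Il1bos 605.

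**Figure D2:**
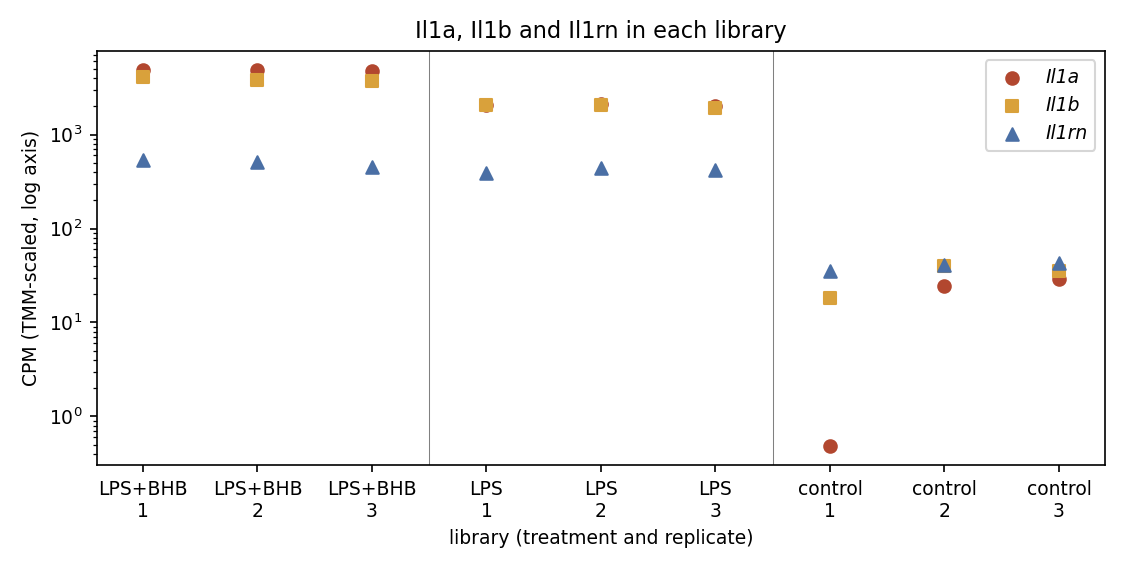
Il1a, Il1b and Il1rn in each of the 9 libraries, in CPM on a log axis, with the LPS plus BHB libraries at the left, LPS in the middle and control at the right. Control replicate 1 has Il1a at 0.479 CPM and Il1b at 18.4 CPM, and it is also the lowest control library for Il1rn, at 35.3 CPM against 40.6 and 43.2 CPM.

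Against control, Il1a and Il1b had the largest log2 fold changes of the 7 tested members in both treated groups. The log2 fold change in LPS against control was 6.85 for Il1a (SE 0.96, adjusted p = 0.000517) and 5.99 for Il1b (SE 0.31, adjusted p = 1.69e-06). With LPS plus BHB against control the values were 8.08 for Il1a (SE 1.01, adjusted p = 0.000289) and 6.95 for Il1b (SE 0.32, adjusted p = 9.77e-07). Both comparisons share the control libraries. Against control replicate 1 alone, Il1a was 10151-fold higher with LPS plus BHB and 4320.0-fold higher with LPS, on 17 control counts, with fitted log2 fold changes of 13.30 with LPS plus BHB and 12.07 with LPS. Il1b was 211-fold higher with LPS plus BHB and 109-fold higher with LPS. Control replicates 2 and 3 held an Il1a excess over replicate 1 of 1.16% and 1.37% of the LPS mean, an Il1b excess of 1.09% and 0.849%, and an Il1rn excess of 1.27% and 1.88%. Other members that rose with LPS differed, with Il1rap at 5.59% and 1.45%. Il18 was lower in replicates 2 and 3 than in replicate 1, at -18.0% and -11.1%. Il1rn was 14.1-fold higher with LPS plus BHB and 11.8-fold higher with LPS than in control replicate 1, against 12.6-fold and 10.5-fold over the mean of all 3 control libraries. The ratio of Il18 to control replicate 1 was 2.03 with LPS plus BHB and 2.36 with LPS, against 2.63 and 3.06 over all 3. Il18bp kept ratios of 0.617 with LPS plus BHB and 0.397 with LPS, and Il1rap had 1.80 and 1.49 in the same order. For the receptor genes with few counts, the ratio of Il1r1 was 2.05 with LPS plus BHB and 1.57 with LPS, and that of Il1r2 was 0.0928 with LPS plus BHB and 0.269 with LPS.

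Il18 was higher in both treated groups than in control, and the treated groups did not differ past the threshold. Il18, on chromosome 9 from 50554827 to 50581840 (plus strand), had 10.3, 9.76 and 11.96 CPM with LPS plus BHB, 11.01, 11.9 and 14.4 CPM with LPS, and 5.27, 3.02 and 3.89 CPM in control. The treated groups overlapped each other and both lay above control. Against control the log2 fold change of Il18 was 1.40 (SE 0.17, adjusted p = 3.40e-07) with LPS plus BHB and 1.62 (SE 0.17, adjusted p = 3.64e-08) with LPS. In LPS plus BHB against LPS its log2 fold change was -0.22 (SE 0.15, adjusted p = 0.255, and 0.130 in the fit of the 6 libraries). The spread between libraries (biological coefficient of variation 12.5%) and the 281 to 407 counts per treated library both limit how small a change could be seen.

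Il1rn, the receptor antagonist gene (chromosome 2, 24336853 to 24351494, plus strand), rose with LPS and a little further with BHB. Its libraries had 535, 513 and 451 CPM with LPS plus BHB, 394, 437 and 416 CPM with LPS, and 35.3, 40.6 and 43.2 CPM in control. No groups overlapped, though the lowest LPS plus BHB library was close to the highest LPS library. The log2 fold change was 3.39 (SE 0.08, adjusted p = 2.71e-14) in LPS against control, 0.26 (SE 0.07, adjusted p = 0.00698) in LPS plus BHB against LPS, and 3.65 (SE 0.08, adjusted p = 1.36e-14) in LPS plus BHB against control. The SD of Il1rn was 8.71% of its mean with LPS plus BHB, 5.18% with LPS and 10.1% in control. Its biological coefficient of variation, estimated from all groups, was 6.50%.

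Il18bp, whose protein neutralises interleukin 18, was the single called member that fell with LPS against control, and with LPS plus BHB it lay between LPS and control. Il18bp (chromosome 7, 102014885 to 102018690, minus strand) had 10.8, 8.51 and 10.7 CPM with LPS plus BHB, 6.03, 8.18 and 5.09 CPM with LPS, and 16.2, 17.3 and 15.2 CPM in control. None of the groups overlapped. Its log2 fold change was -1.34 (SE 0.14, adjusted p = 4.97e-08) in LPS against control and -0.70 (SE 0.14, adjusted p = 0.000115) in LPS plus BHB against control, and 0.64 (SE 0.15, adjusted p = 0.00127) in LPS plus BHB against LPS. Numa1, a nuclear mitotic apparatus gene on the opposite strand, shares 80 of the 3026 exon bases of Il18bp and had 216 CPM with LPS plus BHB, 130 CPM with LPS and 450 CPM in control. Numa1 moved in the same directions, with log2 fold changes of 0.73 in LPS plus BHB against LPS and -1.79 in LPS against control, and the part of its reads in the Il18bp values was not tested.

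Of the receptor genes, Il1r1 and Il1r2 were low throughout. Il1r1, the signalling receptor gene (chromosome 1, 40225080 to 40317257, plus strand), had 24, 18 and 28 counts with LPS plus BHB, 17, 19 and 18 counts with LPS, and 14, 29 and 39 counts in control. Scaled to library size, the groups overlapped in all 3 comparisons. Il1r1 passed no test, with log2 fold changes of 0.38 (SE 0.42, adjusted p = 0.479) in LPS plus BHB against LPS, -0.27 (SE 0.42, adjusted p = 0.556) in LPS against control and 0.11 (SE 0.41, adjusted p = 0.815) in LPS plus BHB against control. The exact 95% counting interval of the ratio was 0.902 to 1.90 in LPS plus BHB against LPS, 0.573 to 1.18 in LPS against control and 0.770 to 1.498 in LPS plus BHB against control, and these intervals cover counting error only. They leave out the spread between libraries, for which the biological coefficient of variation of Il1r1 was 26.6%.

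Il1rap, the accessory chain gene (chromosome 16, 26581704 to 26730117, plus strand), rose modestly in each comparison. It had 19.9, 22.6 and 25.2 CPM with LPS plus BHB, 18.3, 16.1 and 21.4 CPM with LPS, and 12.5, 13.6 and 12.8 CPM in control. Both treated groups lay above control but overlapped each other. The log2 fold change was 0.52 (SE 0.11, adjusted p = 0.000140) in LPS against control and 0.80 (SE 0.10, adjusted p = 6.44e-07) in LPS plus BHB against control. In LPS plus BHB against LPS it was 0.28 (SE 0.10, adjusted p = 0.0308), a call lost without LPS plus BHB replicate 2 (adjusted p = 0.0662) or 3 (0.158), without LPS replicate 1 (0.0857) or 2 (0.187), and with scaling by library totals (0.0800). Il1rap has 4 coding transcripts in the basic GENCODE M21 set, and gene counts do not separate membrane from soluble forms.

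Il1r2, the decoy receptor gene (chromosome 1, 40074079 to 40125231, plus strand), did not pass the filter on low counts and was not tested. It had 0, 0 and 2 counts with LPS plus BHB, 3, 1 and 2 counts with LPS, and 9, 6 and 15 counts in control. Every control library had more counts than any treated library. Over each group the ratio was 0.0840 in LPS plus BHB against control (exact 95% counting interval 0.00973 to 0.331), 0.250 in LPS against control (0.0852 to 0.611) and 0.336 in LPS plus BHB against LPS (0.0331 to 1.88). A count of 0 allows up to 0.102 and 0.104 CPM in LPS plus BHB replicates 1 and 2 (3 counts), and these intervals and limits cover counting error only. Neutrophils are known to express Il1r2. Of 6 tested neutrophil and precursor markers 5 fell with LPS against control, beside 41.4% of all genes tested. In LPS plus BHB against LPS 3 of the 6 rose and none fell, beside 26.4% and 24.4% of all genes. In LPS plus BHB against control 1 rose and 3 fell, beside 38.0% and 40.4% of all genes. The summed level of 12 such markers was 269 to 280.3 CPM in control. That sum was 47.8 to 48.6 CPM with LPS plus BHB and 45.7 to 49.2 CPM with LPS. Most of that sum was Csf3r, at 40.1, 42.6 and 254 CPM in LPS plus BHB, LPS and control, while Ly6g had 3 counts over all libraries, and the part of such cells in the Il1r2 counts was not tested.

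**Figure D3:**
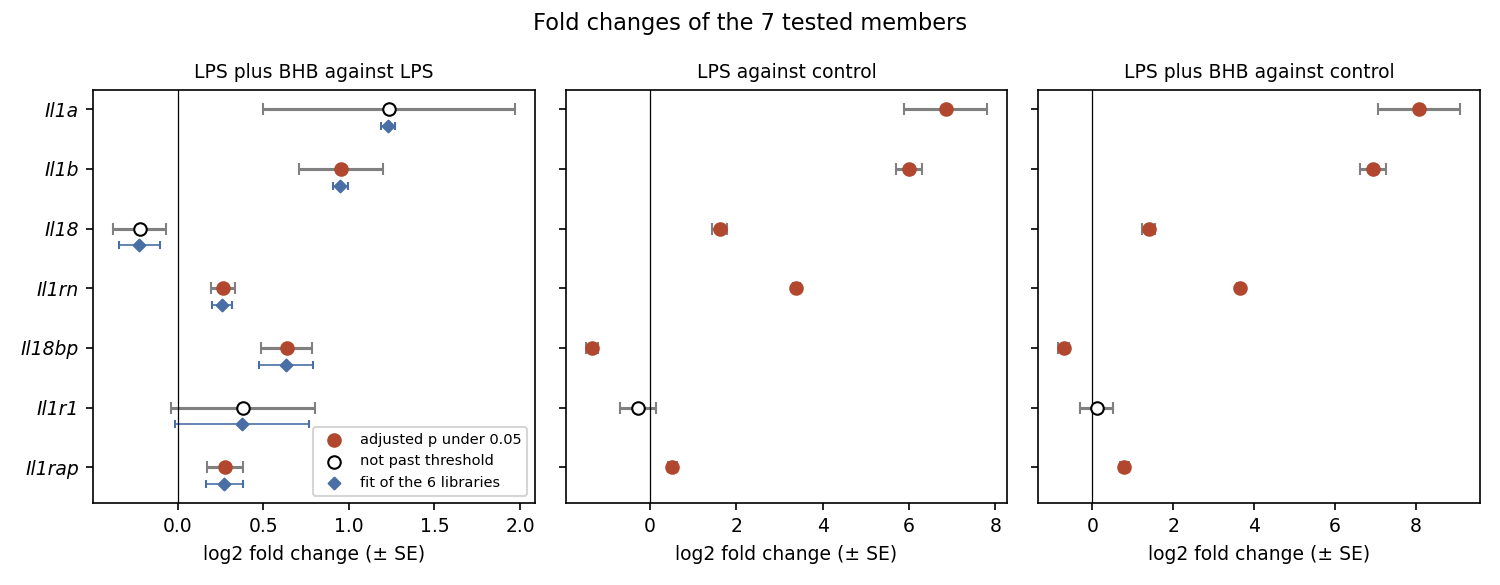
Log2 fold change with SE (edgeR, 9 libraries) of the 7 tested members in LPS plus BHB against LPS, LPS against control, and LPS plus BHB against control. Filled circles passed an adjusted p of 0.05, open circles did not, and blue diamonds in the first panel show the fit of the 6 libraries compared, in which Il1a keeps its value of 1.23 with an SE of 0.04 in place of 0.74.

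Counted over the family, 7 of 8 members were tested. In LPS against control 5 rose, 1 fell and 1 did not pass, while 38.4% of all genes tested were called higher, 41.4% lower and 79.8% in either direction. The libraries of LPS and control did not overlap for 6 of the 7 members, beside 82.7% of all genes. In LPS plus BHB against LPS 4 rose, none fell and 3 did not pass, while 26.4% of all genes were called higher, 24.4% lower and 50.7% in either direction. The libraries did not overlap for 4 members, beside 56.7% of all genes. In LPS plus BHB against control 5 rose, 1 fell and 1 did not pass, while 38.0% of genes were called higher, 40.4% lower and 78.4% in either direction, and 6 members had no overlap, beside 80.2% of all genes. The shares of members called in either direction lay near these backgrounds, while members called higher outnumbered members called lower in each comparison. The median log2 fold change of the tested members was 1.62, 0.38 and 1.40 in the 3 comparisons, in the same order, against -0.06, 0.01 and -0.06 over all genes tested.

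Per length of the longest coding transcript, Il1b and Il1a stood above every other member in both treated groups. With LPS plus BHB, the levels in CPM per kilobase were 2860.1 for Il1b, 2462 for Il1a, 202 for Il1rn, 12.1 for Il18, 4.99 for Il1rap, 3.85 for Il18bp, 0.139 for Il1r1 and 0.0166 for Il1r2, and no neighbours in that order overlapped between libraries. With LPS the order was the same, with Il1b at 1475 and Il1a at 1048 CPM per kilobase. Among 11439 tested genes with a length, Il1b ranked 9 with LPS plus BHB, 20 with LPS and 2371 in control, and Il1a ranked 11, 33 and 5148. In control Il1b stood at 23.1, Il1rn at 16.05 and Il1a at 9.06 CPM per kilobase, followed by Il18bp, Il18, Il1rap, Il1r2 and Il1r1, and all neighbours in that order overlapped between libraries except Il18 with Il1rap and Il1rap with Il1r2. These lengths come from GENCODE M21 and not from the annotation used for counting, which is not stated.

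The balance between each inhibitor and its partner was compared within libraries, which removes library scaling. The mean log2 ratio of Il1rn to Il1b counts was -2.96 ± 0.08 with LPS plus BHB, -2.27 ± 0.09 with LPS and 0.41 ± 0.48 in control (SD, n = 3 each). The difference was -0.69 in LPS plus BHB against LPS, -2.68 in LPS against control and -3.37 in LPS plus BHB against control. Per length, the ratio of Il1b to Il1rn was 13.6 to 15.1 with LPS plus BHB, 8.35 to 9.45 with LPS and 0.951 to 1.81 in control. The groups did not overlap in any pair.

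Il18bp and Il18 followed another pattern. The log2 ratio of Il18bp to Il18 counts was -0.10 ± 0.14 with LPS plus BHB, -0.97 ± 0.48 with LPS and 2.03 ± 0.45 in control (SD, n = 3 each), again with no overlap. The difference was 0.87 in LPS plus BHB against LPS, -2.9998 in LPS against control and -2.13 in LPS plus BHB against control. The log2 ratio of Il1r2 to Il1r1 was -4.78 ± 1.12, -2.97 ± 0.69 and -1.38 ± 0.79 in LPS plus BHB, LPS and control, with LPS plus BHB and LPS overlapping, and it rests on few counts. Its difference in LPS plus BHB against LPS was -1.81, and became -0.96 with a pseudocount of 2 in place of 0.5 and -2.44 without LPS plus BHB replicate 3. The difference in LPS plus BHB against control was -3.40, and became -2.05 with a pseudocount of 2 and -4.03 without LPS plus BHB replicate 3. In LPS against control it was -1.59. In 8 of these 9 comparisons the two-sided exact permutation test gave p = 0.1 (Benjamini-Hochberg adjusted 0.112), the smallest value that 3 against 3 libraries allow, and the ratio of Il1r2 to Il1r1 in LPS plus BHB against LPS gave p = 0.2 (adjusted 0.2). None could therefore pass 0.05 in this design.

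**Figure D4:**
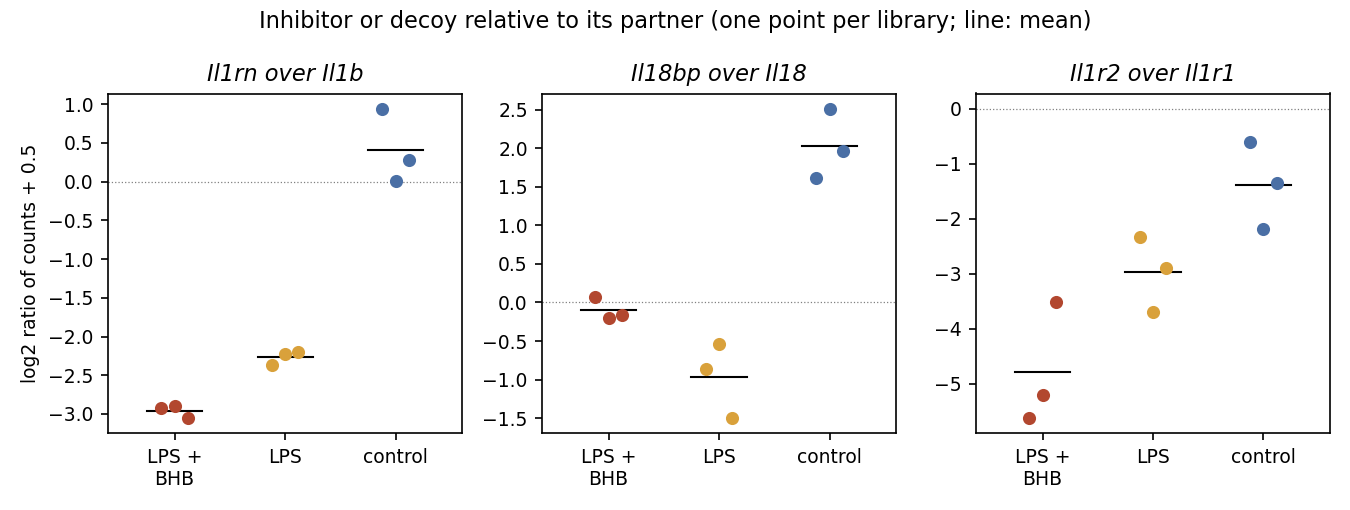
Log2 ratio of counts (each plus 0.5) of Il1rn to Il1b, Il18bp to Il18 and Il1r2 to Il1r1, with 1 point per library and a line at the mean of 3 libraries in LPS plus BHB, LPS and control. The ratio of Il1rn to Il1b is lowest with LPS plus BHB and the ratio of Il18bp to Il18 is lowest with LPS.

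The rest of the interleukin 1 family was mostly near the detection limit. Of 13 other ligand and receptor genes, 3 had no count and 5 were tested. In LPS plus BHB against LPS none rose and 2 fell, the interleukin 36 receptor gene Il1rl2, at 7.37 CPM with LPS plus BHB and 11.7 CPM with LPS (log2 fold change -0.67, SE 0.13, adjusted p = 0.000201), and Il1f9, an older symbol for the interleukin 36 gamma gene, at 0.150 CPM with LPS plus BHB and 0.524 CPM with LPS (log2 fold change -1.78, SE 0.55, adjusted p = 0.0104). Over all genes tested, 26.4% were called higher and 24.4% lower in that comparison. In LPS against control 2 of the 5 rose and 3 fell, beside 38.4% and 41.4% of all genes. Il1rl2 rose by 1.51 (SE 0.13, adjusted p = 1.57e-09) and Il1rl1, the interleukin 33 receptor gene, fell to 0.0698 CPM with LPS against 3.52 CPM in control (log2 fold change -5.60, SE 0.48, adjusted p = 7.47e-10). The interleukin 18 receptor genes were low as well, with 18 counts of Il18r1 over all libraries and Il18rap at 0.0683, 0.0573 and 2.29 CPM in LPS plus BHB, LPS and control.

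Genes that process and release interleukin 1 and interleukin 18 moved in both directions. Of 14 tested, 9 rose and 4 fell in LPS plus BHB against LPS, and 6 rose and 8 fell in LPS against control. The medians were 0.48 and -0.71, beside 0.01 and -0.06 over all genes. Over all genes tested, 26.4% were called higher and 24.4% lower in the first comparison, and 38.4% and 41.4% in the second. Casp1, the interleukin 1 beta-cleaving protease gene, fell to 63.3 CPM with LPS plus BHB, against 157 CPM with LPS (log2 fold change -1.31, SE 0.06, adjusted p = 7.13e-14), and averaged 65.1 CPM in control. The gene of the sensor pyrin, Mefv, had 154 CPM with LPS plus BHB and 51.0 CPM with LPS (log2 fold change 1.60, SE 0.06, adjusted p = 3.40e-14), while the adaptor gene Pycard had 11.9, 5.496 and 26.7 CPM in LPS plus BHB, LPS and control. With LPS against control Nlrp3, the inflammasome sensor gene, rose by 4.42 (SE 0.07, adjusted p = 3.23e-22) and the noncanonical caspase gene Casp4 by 3.96 (SE 0.06, adjusted p = 3.55e-22).

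Of 16 genes of interleukin 1 receptor signalling, all tested, 8 rose and 4 fell in LPS plus BHB against LPS. In LPS against control 11 rose and 3 fell. The medians were 0.10 and 0.83, beside 0.01 and -0.06 over all genes. Shares of all genes called higher and lower were 26.4% and 24.4% in the first comparison, and 38.4% and 41.4% in the second. Irak3, an inhibitory member of the receptor-associated kinase family, rose to 298 CPM with LPS plus BHB, against 130 CPM with LPS (log2 fold change 1.19, SE 0.05, adjusted p = 4.40e-14), and the kinase gene Ikbkb rose by 0.84 (SE 0.04, adjusted p = 1.41e-12). In LPS against control the ubiquitin ligase gene Peli1 rose by 4.26 (SE 0.05, adjusted p = 4.67e-23) and Irak2 by 2.10 (SE 0.05, adjusted p = 2.52e-19). These adaptors and kinases also serve Toll-like receptors.

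Of 11 genes known to regulate interleukin 1 transcripts, 5 rose and 5 fell in LPS plus BHB against LPS. In LPS against control 8 rose and 3 fell. The medians were 0.13 and 1.69, beside 0.01 and -0.06 over all genes. Among all genes tested, 26.4% were called higher and 24.4% lower in the first comparison, and 38.4% and 41.4% in the second. Hif1a, a hypoxia-inducible factor that binds the mouse Il1b promoter, had 1260 CPM with LPS plus BHB and 439 CPM with LPS (log2 fold change 1.52, SE 0.05, adjusted p = 6.97e-16). Irf8, a macrophage transcription factor gene, fell (log2 fold change -1.04, SE 0.05, adjusted p = 1.19e-12). The NF-kB subunit genes Nfkb1 and Rel rose by 3.32 (SE 0.05, adjusted p = 3.05e-22) and 2.74 (SE 0.06, adjusted p = 3.74e-20) in LPS against control. The part of any of these regulators in the Il1a and Il1b values was not tested.

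**Figure D5:**
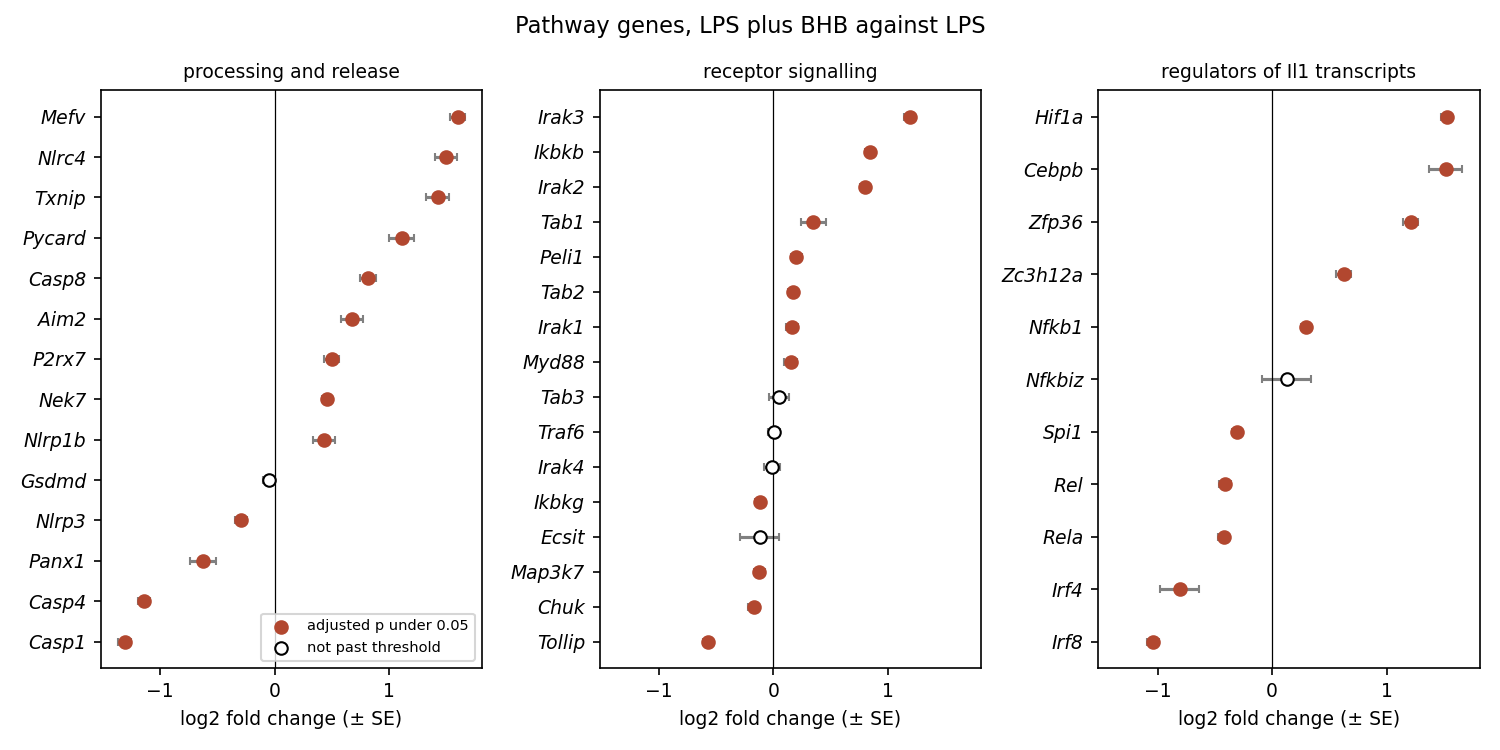
Log2 fold change with SE in LPS plus BHB against LPS for the tested genes of the 3 pathway lists, in which filled circles passed an adjusted p of 0.05 and open circles did not. Mefv, Irak3 and Hif1a lie highest in their lists at 1.60, 1.19 and 1.52, and Casp1, Tollip and Irf8 lowest at -1.31, -0.57 and -1.04.

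The genes whose levels followed each member most closely over the 9 libraries were found by the root mean square difference of log2 CPM, each gene centred on its own mean, among 9323 other genes averaging 5 CPM or more. Il1a lay nearest to Acod1 (0.36) and Shisa3 (0.37), and Il1b to Socs3 (0.18) and Mmp14 (0.18). Il1rn lay nearest to Nfkb1 (0.09) and Tmem39a (0.11), Il18 to Srp54c (0.19) and Trmt13 (0.19), and Il18bp to Gnb5 (0.11) and Nacc2 (0.12). Il1rap lay nearest to Fancm (0.08) and Phospho2 (0.09), and Il1r1 to Slc22a4 (0.27) and Terf1 (0.28). Between members the same measure was 0.47 for Il1r1 and Il1rap, the nearest pair, and 1.64 for Il1a and Il1b. Il1r1 had only 14 to 39 counts per library, and both receptor genes lay nearer to the genes named above than to each other. The value for Il1a and Il1b includes control replicate 1, where Il1a had 0.479 CPM, against 24.4 and 28.8 CPM in control replicates 2 and 3.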

How the data were processed

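The submitters' processing notes name HISAT2 and the mouse build mm10. They name no counting tool, annotation or strand setting. The authors deposited raw counts per gene symbol for 9 libraries, matched by title, and nothing was pooled. Genes were kept with filterByExpr (minimum count 10), scaled by TMM and fitted with edgeR 4.0.16 (R 4.3.3, robust quasi-likelihood, group as the only term, 6 residual degrees of freedom). Adjusted p-values cover all 14026 genes tested, with a threshold of 0.05. CPM are counts scaled by TMM-adjusted totals, and the SE, derived from the F statistic, is approximate. Log2 CPM used a prior count of 2. The fit was also run on simulated counts, whose outcome is not reported here, and no result above rests on it. Replicates differed by more than sampling noise (chi-square per degree of freedom 3.16 to 11.2). Deviations of same-numbered libraries from their group means had correlations from -0.02 to 0.04. In LPS plus BHB against LPS these were 0.033, 0.014 and 0.039, against -0.038 to 0.0077 for libraries of unlike number. Values this small, with 3 libraries a group, cannot show whether the numbers mark pairs. All 8 members are named. In each pathway list the genes with the 2 smallest p-values in LPS plus BHB against LPS and in LPS against control are named, as are the 2 genes nearest each tested member. Pycard, Il18r1, Il18rap, Tollip, the cell type markers named singly and the overlapping genes were added after their values were seen. Members and lists were chosen with earlier results of these data known. Alternatives were DESeq2 1.42.0, its size factors, library totals, no filter, a replicate block, fits of 6 libraries and leaving out libraries.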

Additional observations from a re-analysis of the deposited data

How the results depend on the processing

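The number of members called stayed at 6 in LPS against control under each alternative run. It was 6 in LPS plus BHB against control too, apart from 7 with no filter on low counts, where Il1r2 was tested and called (log2 fold change -3.35, adjusted p = 0.00703). In LPS plus BHB against LPS it was 4, and 2 to 5 when 1 library was left out (2 without LPS replicate 1 or 2). All 48 counts of called genes stayed within 1.5 times the main count. With scaling by library totals all genes shifted by a median of -0.27 (log2) in LPS against control and -0.33 in LPS plus BHB against control, and the split of calls was 4283 higher and 7084 lower, against 5390 and 5801 with TMM, in the first, and 3922 and 7366, against 5328 and 5662, in the second. Il1r1, which passed no test, changed sign: it was at -0.21 with library totals and -0.20 to 0.46 with 1 library left out in LPS plus BHB against control, and at 0.65 without control replicates 2 and 3 and -0.58 to 0.0784 with 1 library left out in LPS against control. The log2 ratio of Il1r2 to Il1r1 in LPS plus BHB minus control was -2.05 with a pseudocount of 2, against -3.40 with 0.5, and in LPS plus BHB minus LPS it was -0.96, against -1.81. A replicate block changed no call of a member, with Il1a in LPS plus BHB against LPS at adjusted p = 0.319. Among fold changes of single members under all alternatives, 319 kept their direction and their side of the threshold, 9 lost a call and 3, all of Il1a in LPS plus BHB against LPS, gained one. Depth limits Il1r1 and Il1r2.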
